A study of Mus musculus with 24 samples.

Results

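The intercalated disc is the structure through which heart muscle cells (cardiomyocytes, CMs) are joined end to end. Desmosomes and adherens junctions fasten the cells to each other there, and gap junctions let current and small molecules pass between them. In rodents these junctions are spread along the cell borders at birth and gather at the cell ends in the weeks after, and inherited defects of their genes cause arrhythmogenic cardiomyopathy. The 10 genes described here were chosen by name, with earlier results of these data known. They are 4 genes of the desmosome (Dsp, Dsg2, Pkp2 and Jup), 3 of the adherens junction (Cdh2, Ctnna1 and Ctnna3), 2 of the gap junction and its scaffold (Gja1 and Tjp1), and Des, the intermediate filament gene whose protein is anchored at desmosomes. They were 10 of the 56923 genes in the count tables, and all 10 were among the 20368 genes that could be tested.

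Nuclear RNA was sequenced from mouse hearts at postnatal day 1 (P1), P7 and P14, with 4 libraries per genotype and day. Nuclei were sorted by PCM1, a protein of the nuclear surface of CMs, from pools of 15 hearts at P1, 6 at P7 and 2 at P14. Both genotypes carried floxed Casp2 alleles, so the control, XMLC2(-)Casp2(fl/fl), differed from the Casp2-depleted mice, XMLC2(+)Casp2(fl/fl), by the absence of a Cre recombinase that the XMLC2 promoter drives in CMs. Of the 24 libraries, 3 were left out as the study did (replicate 1 of P1 control, replicate 3 of P14 control and replicate 1 of P14 Casp2-depleted), which leaves 21 libraries with 891817 to 2924097 reads on genes. Levels are given as CPM, read counts scaled to library size with TMM factors, which adjust for differences in RNA composition. CPM of reads on genes are the same without those factors.

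The libraries kept differed with age in ways that go beyond the 10 genes. The share of uniquely placed reads on no gene was 34.3 to 64.3% at P7 and 63.7 to 76.1% at P14, and 14006 to 17770 genes had a read at P7 against 7628 to 13651 at P14. In CPM of reads on genes, the 12 CM marker genes summed to 49151 to 91534 at P7 and to 12962 to 48139 at P14. At P1 they summed to 24056 to 82910, and all 12 were read at each day. The labelled cell type thus had its markers at every day, at a lower summed level at P14 than at P7. In the same unit, markers of fibroblasts, endothelial cells, mural cells and macrophages summed to medians of 157, 302, 353 and 94.6 at P7. At P14 these medians were 331, 639, 299 and 336. Fewer cells of a type and less RNA per cell cannot be told apart in such samples. Casp2 itself had 0 reads at P1 and P14 in every library and 0 to 5 reads at P7 in both genotypes, so its 3′ counts did not check the labels.

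In build GRCm39, Dsp lies at chr13:38335230-38382553, Dsg2 at chr18:20691074-20737581, Pkp2 at chr16:16031144-16090586, Jup at chr11:100259784-100291103, Cdh2 at chr18:16700793-16942381, Ctnna1 at chr18:35226033-35387833, Ctnna3 at chr10:63265877-64846348, Gja1 at chr10:56253241-56278609, Tjp1 at chr7:64945898-65177529 and Des at chr1:75320511-75345223. Reads were counted over exons and introns, and the members differ in gene length from 24.7 kb (Des) to 1580 kb (Ctnna3) by GENCODE vM39. The study counted on an Ensembl annotation, whose gene spans may differ, so levels per kb are approximate. How far reads of a 3′ kit grow with gene length was not tested. Ctnna3 took 57.1 to 75.0% of the members' reads in each library. Per kb of gene, the order was another. In P7 control libraries Gja1 led with a mean level of 17.8 CPM per kb, followed by Dsg2 with 9.79 and Dsp with 7.38 CPM per kb. Pkp2, Ctnna3, Cdh2, Jup, Des and Ctnna1 lay between 4.18 and 1.89 CPM per kb, and Tjp1 was lowest with 0.491 CPM per kb. The 10 genes together held 0.270 to 0.916% of the reads on genes of a library.

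Most disc genes were lower at P14 than at P7. In the comparison of P14 with P7 over both genotypes, 7 of 10 members fell, Pkp2, Dsg2, Cdh2, Ctnna1, Ctnna3, Gja1 and Des, and none rose. A call needed a change of more than 1 on the log2 scale and, in edgeR's quasi-likelihood test, a p below 0.05 after Benjamini-Hochberg adjustment. By the same rule 8.66% of all genes tested were called lower, and 17.7% of the 5784 genes with a mean of at least 50 reads per library, a level all 10 members reached. The median log2 fold change of the members was -1.41, against -0.87 over all genes tested and -0.395 over those 5784 genes. Over the 12 CM markers it was -2.42, and 10 of them were called lower. The lower level of the disc genes at P14 thus came with a lower level of the CM marker genes and a higher share of reads on no gene. The part of the CM marker level in the result was not tested. When that share entered the fit as a covariate, 0 of the 10 members were called, 2 of them being at an unadjusted p below 0.05, where 1.1% of all genes were called and 10.2% were at that p.

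**Figure D1:**
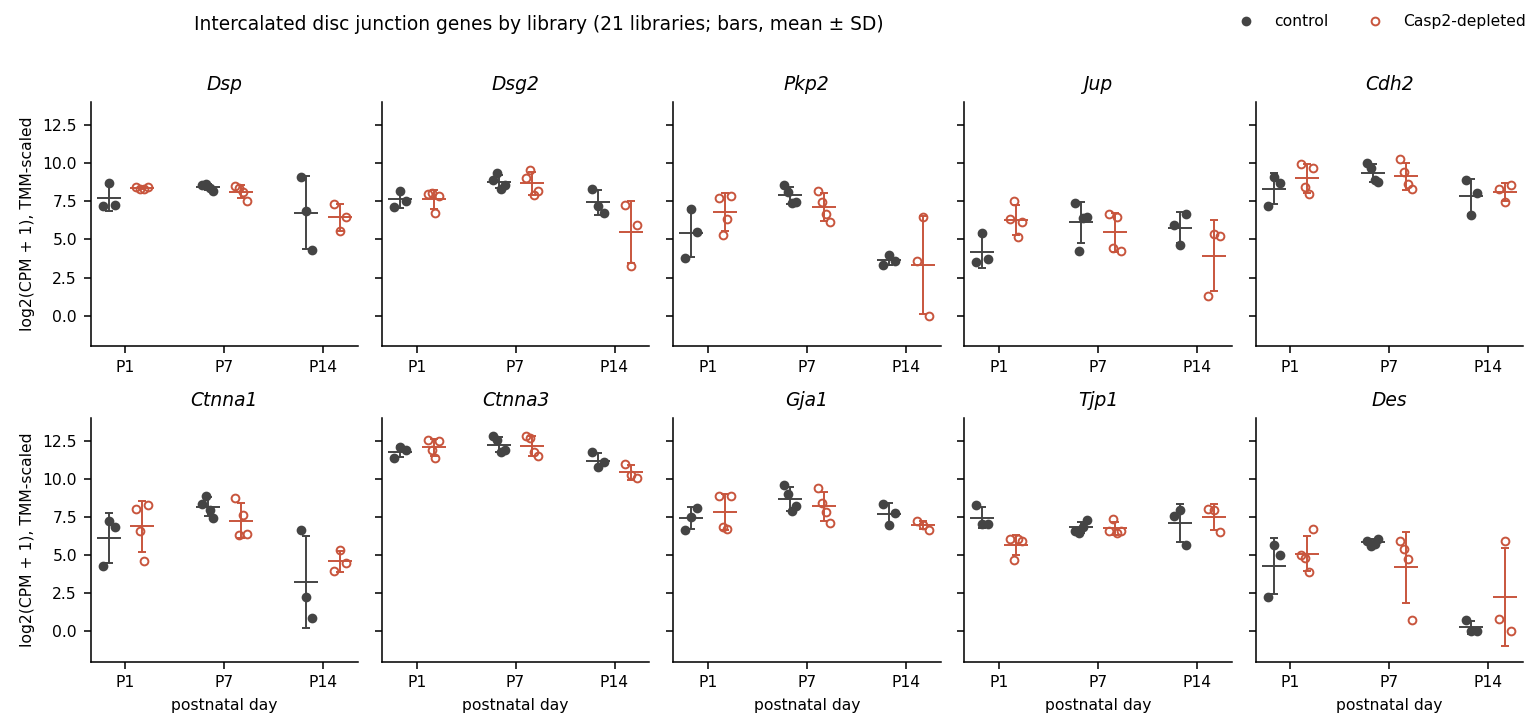
Level of each disc gene in each of the 21 libraries, as log2(CPM + 1) on the vertical axis against postnatal day, with filled points for control and open points for Casp2-depleted libraries and bars for the mean ± SD of a group. Pkp2, Ctnna1 and Des had their lowest points at P14, and Tjp1 did not.

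Desmosomal cadherins reach across the gap between cells, and plakophilins, plakoglobin and desmoplakin tie them to the intermediate filaments. Pkp2 encodes plakophilin 2, the plaque protein most often affected in arrhythmogenic cardiomyopathy. Its level in the P7 control libraries was 371, 280.0, 169.8 and 174 CPM (replicates 1 to 4), and in the P7 Casp2-depleted libraries 293, 174, 101 and 69.1 CPM. At P14 the control libraries held 9.15, 14.5 and 11.1 CPM and the Casp2-depleted libraries 10.8, 86.2 and 0 CPM. All control libraries of P14 lay far below those of P7, where 13% of all genes tested had every P14 control library lower. In Casp2-depleted hearts replicate 3 at P14, with 132 reads, stood above the lowest library of P7. The log2 fold change was -3.43 ± 0.60 (SE) over both genotypes (adjusted p = 1.1e-06), -4.49 ± 0.90 in control (adjusted p = 0.00018) and -2.37 ± 0.80 in Casp2-depleted libraries (adjusted p = 0.084). Without P14 Casp2-depleted replicate 3 the value in Casp2-depleted libraries was -4.76 (adjusted p = 0.00257), which passes the test.

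Dsg2, the desmosomal cadherin of the heart, was highest at P7 and was the member with the steadiest rise from P1. Its lowest, median and highest levels were 104, 228 and 294 CPM at P1 (n = 7), 240.2, 432 and 763 CPM at P7 (n = 8) and 8.49, 125 and 322 CPM at P14 (n = 6). Each P7 library except P7 Casp2-depleted replicates 3 and 4 stood above every P1 library, and each exceeded the P1 library with its genotype and number in 7 of 7 pairs. From P1 to P7 the log2 fold change was 1.17 ± 0.39 (SE, unadjusted p = 0.0025, adjusted p = 0.34), which does not pass the test across all genes. From P7 to P14 it was -2.01 ± 0.42 (adjusted p = 9.4e-05), and lower in 6 of 6 pairs. In Casp2-depleted libraries alone the fall was -2.71 ± 0.61 (adjusted p = 0.00099), and it is no longer called without P14 Casp2-depleted replicate 3, the library with 13 Dsg2 reads (-1.97, adjusted p = 0.148).

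The 2 plaque genes Dsp and Jup were not called between any days. Dsp, which encodes desmoplakin, ranged from 184 to 398 CPM at P7 and from 18.9 to 539 CPM at P14, where its highest library was P14 control replicate 1. Its log2 fold change from P7 to P14 was -1.15 ± 0.41 (adjusted p = 0.053). Without that library it was -2.03 (adjusted p = 0.00047), and in a fit with replicate blocks -1.30 (adjusted p = 0.026), both past the threshold. It was -0.83 (adjusted p = 0.21) without P14 Casp2-depleted replicate 3, -0.45 (adjusted p = 0.49) in reads on genes alone and -0.88 (adjusted p = 0.19) in DESeq2, which are not. Jup, which encodes plakoglobin (a catenin shared by desmosomes and adherens junctions), ranged from 17.5 to 163 CPM at P7 and from 1.43 to 102 CPM at P14, and its log2 fold change of -0.90 ± 0.77 had an interval of 2 SE from -2.44 to 0.64.

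In adherens junctions Cdh2, which encodes N-cadherin, binds the same protein on the next cell, and alpha-catenins link it to actin. The P7 control libraries held 1026, 829, 477 and 442 CPM of Cdh2, and the P7 Casp2-depleted libraries 1213, 673, 399 and 309 CPM. At P14 the values were 472, 97.5 and 257 CPM in control and 311, 176 and 380.2 CPM in Casp2-depleted libraries. The days overlapped, and the lowest P7 library was below 3 of the 6 P14 libraries. The log2 fold change of -1.32 ± 0.36 (adjusted p = 0.0056) was lost as a call with DESeq2's size factors (-0.99) or with all 24 libraries (-0.28). The call was also lost without any of 3 single libraries (adjusted p = 0.076 to 0.11). The 2 left-out P14 libraries held 1515 and 1759.7 CPM of reads on genes, against at most 866 in the kept control libraries. They had a read on only 2049 and 4285 genes, against 7628 or more in the P14 libraries kept.

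Ctnna1 and Ctnna3 encode alphaE- and alphaT-catenin, of which the second is the form found in few tissues besides heart and testis. Ctnna1 was at 329.5, 476, 249 and 169 CPM in the P7 control libraries and at 424, 77.2, 199 and 81.8 CPM in the P7 Casp2-depleted libraries. At P14 it was at 98.6, 3.81 and 0.790 CPM in control and at 14.3, 38.5 and 21.4 CPM in Casp2-depleted libraries. Only P14 control replicate 1, with 140 reads, stood above the lowest P7 libraries, and within each genotype the days did not overlap, as was so for 13% of all genes tested in control and 10.6% in Casp2-depleted libraries. Ctnna1 was called in each genotype, with a log2 fold change of -3.20 ± 0.76 in control (adjusted p = 0.0038), -3.05 ± 0.76 in Casp2-depleted libraries (adjusted p = 0.0046) and -3.12 ± 0.54 over both (adjusted p = 9.0e-07). In the fit with replicate blocks, the value in Casp2-depleted libraries was -2.32 (adjusted p = 0.064), which is not called, and the call there was also lost without P7 replicate 1 or P14 replicate 4. In control the call was lost without P7 replicate 2, P14 replicate 2 or P14 replicate 4 (adjusted p = 0.055 to 0.10) and in reads on genes alone (adjusted p = 0.11), with filterByExpr (adjusted p = 0.22) and in limma-voom with TMM (adjusted p = 0.083) or quantile normalization (adjusted p = 0.17). Without P14 control replicate 1, the library with 140 reads, the value was -7.09 in control and -5.07 over both genotypes. Counts over the whole of Ctnna1 may include reads of Lrrtm2, an overlapping gene on the opposite strand, if the counting did not use strand.

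Ctnna3 had the most reads and the smallest standard errors of the members. Its P7 levels were 7187, 5965, 3421 and 3759 CPM in control and 7157, 6401, 3389 and 2889 CPM in Casp2-depleted libraries. Its P14 levels were 3399, 1749 and 2155 CPM in control and 2024, 1196 and 1038 CPM in Casp2-depleted libraries. The P14 libraries lay below the P7 libraries within each genotype, as for 13% of all genes tested in control and 10.6% in Casp2-depleted libraries. In CPM of reads on genes the control days overlapped, with P14 control replicate 1 at 3775 and P7 control replicate 3 at 2822. The log2 fold change was -1.50 ± 0.25 over both genotypes (adjusted p = 2.4e-07), -1.88 ± 0.36 in Casp2-depleted libraries (adjusted p = 3.3e-05) and -1.13 ± 0.35 in control (adjusted p = 0.060). Replicate blocks brought the control value to -1.25 (adjusted p = 0.0068). Scaled to reads on genes alone, without TMM factors, the value over both genotypes was -0.72 (adjusted p = 0.021), which is under the fold required. It was -0.17 (adjusted p = 0.83) in limma-voom with quantile normalization, -1.94 (adjusted p = 0.34) in limma-voom with TMM and -1.05 (adjusted p = 0.058) with all 24 libraries, none of them called.

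The balance of these 2 alpha-catenin genes moved as well. A further alpha-catenin gene, Ctnna2, held 16553 reads over the 21 libraries and is not part of the share given here. Ctnna3 took 95.3% ± 2.05 (SD, n = 8) of the reads on both genes at P7, 97.2% ± 1.68 (n = 7) at P1 and 98.5% ± 1.35 (n = 6) at P14. This share needs no scaling between libraries, but it is a share of reads counted over genes of 1580 and 162 kb, and per kb the 2 genes were at 3.18 and 1.55 CPM per kb at P7. From P7 to P14 the share rose by 3.26 percentage points (exact permutation test, two-sided, p = 0.0080, adjusted over 3 pairs of days 0.024). Without P14 control replicate 2 or 4 the adjusted p was 0.054 and 0.056. The differences of P7 from P1 (-1.91 points, exact p = 0.074, adjusted 0.11) and of P14 from P1 (1.35 points, exact p = 0.14) were not past the threshold. Between genotypes the share differed by -0.89 points at P1, 1.94 at P7 and -0.92 at P14 (exact permutation p = 0.54, 0.20 and 0.50, where the smallest p that 3 against 3 libraries allow is 0.10).

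**Figure D2:**
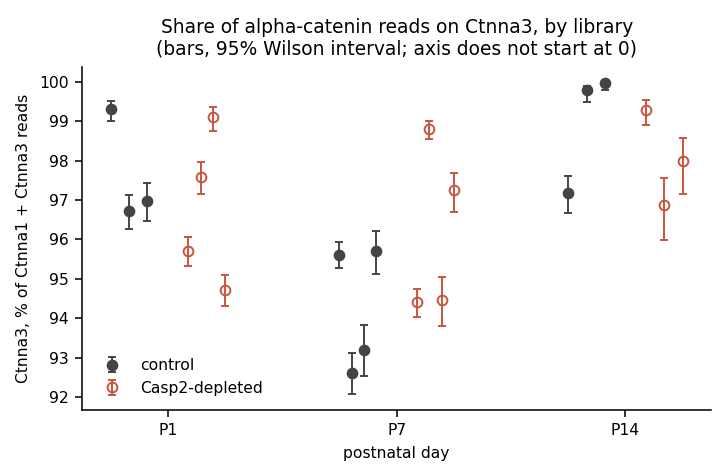
Share of the reads on Ctnna1 and Ctnna3 that lay on Ctnna3, in percent on the vertical axis. Each of the 21 libraries is shown by day and genotype, with 95% Wilson intervals that cover counting error only. The P7 libraries reach from 92.6 to 98.8% and the P14 libraries from 96.9 to 99.96%.

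Gap junction channels of the ventricle are built mainly from connexin 43, the product of Gja1, and the scaffold ZO-1, the product of Tjp1, binds it at the edge of the junction plaque. These 2 genes took different courses, and so did Des, whose filaments run from desmosome to desmosome. The bases before their start sites are shown to let a reader set the promoters beside these courses (250 bases each, RefSeq, build GRCm38.p6, chr10:56377050-56377299 on the plus strand for Gja1, chr7:65371245-65371494 on the minus strand for Tjp1 and chr1:75360042-75360291 on the plus strand for Des). Capitals mark E-boxes (CANNTG, bound by basic helix-loop-helix factors) and GATA motifs (GATA on either strand, bound by GATA factors such as GATA4).
Gja1: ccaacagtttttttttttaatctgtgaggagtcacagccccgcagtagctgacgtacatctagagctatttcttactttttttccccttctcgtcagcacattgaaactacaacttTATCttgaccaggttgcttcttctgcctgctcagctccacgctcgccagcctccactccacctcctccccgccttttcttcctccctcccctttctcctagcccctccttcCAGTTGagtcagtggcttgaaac
Tjp1: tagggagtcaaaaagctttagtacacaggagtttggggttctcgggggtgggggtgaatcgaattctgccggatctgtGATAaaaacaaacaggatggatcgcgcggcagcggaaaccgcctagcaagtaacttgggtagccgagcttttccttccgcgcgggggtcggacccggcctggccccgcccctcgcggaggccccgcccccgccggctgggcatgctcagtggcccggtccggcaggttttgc
Des: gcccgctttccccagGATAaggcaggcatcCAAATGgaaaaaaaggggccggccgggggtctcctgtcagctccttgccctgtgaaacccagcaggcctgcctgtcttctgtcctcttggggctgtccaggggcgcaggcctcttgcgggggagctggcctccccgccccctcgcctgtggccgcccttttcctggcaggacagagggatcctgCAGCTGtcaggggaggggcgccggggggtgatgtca
Gja1 held 1 E-box, at position -23, Des held 2, at -220 and -36, and Tjp1 held none, where positions count from the start site and name the first base of a motif. An E-box was found in 66.2% of 32851 promoter windows of this length and a GATA motif in 53.6%, so each of these matches is common, and the 3 windows held no MEF2 or CArG motif, which were found in 2.92% and 1.47%. Windows of 6 members were searched in all.

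The P7 control libraries held 755, 516, 237 and 297 CPM of Gja1, and the P7 Casp2-depleted libraries 668, 344, 223 and 138 CPM. At P14 the values were 325, 123 and 213 CPM in control and 149, 127 and 99.9 CPM in Casp2-depleted libraries. The days overlapped, although each P14 library was below the P7 library of its genotype and number. The log2 fold change was -1.31 ± 0.41 (adjusted p = 0.022). Gja1 was the called member closest to the threshold in fold, and it was not called with DESeq2's size factors (adjusted p = 0.094), in reads on genes alone (-0.51) or without any of 9 single libraries.

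Tjp1 alone among the members had a positive log2 fold change from P7 to P14. Its levels were 96.0, 87.7, 116 and 156 CPM in P7 control, 96.4, 166, 86.2 and 94.5 CPM in P7 Casp2-depleted, 190.1, 251 and 49.7 CPM in P14 control and 260.3, 249.5 and 90.2 CPM in P14 Casp2-depleted libraries. At P14 4 libraries were above all P7 libraries, and P14 control replicate 4 was below all of them. The log2 fold change of 0.62 ± 0.50 was not called (adjusted p = 0.45), and its interval of 2 SE ran from -0.37 to 1.61. Relative to the median of all genes it was 1.49.

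Des encodes desmin, the main intermediate filament protein of muscle. Its levels were 60.7, 46.6, 52.4 and 64.7 CPM in P7 control and 59.1, 40.1, 25.1 and 0.705 CPM in P7 Casp2-depleted libraries. At P14 the control libraries held 0.704, 0 and 0 CPM, and the Casp2-depleted libraries 0.717, 59.4 and 0 CPM. Thus 5 of the 6 P14 libraries held at most 1 read of Des, and the sixth, Casp2-depleted replicate 3, held 91. A count of 0 allows up to 3 reads, which is 2.92 and 3.36 CPM of reads on genes in the control libraries at 0. The pooled control libraries held 1 read at P14 and 358 at P7, a ratio of 139-fold lower per read on genes with a 95% counting interval of 24.7- to 5489-fold. The fitted log2 fold change was -4.11 ± 1.35 over both genotypes (adjusted p = 0.033), -7.49 ± 2.26 in control (adjusted p = 0.0497) and -0.72 ± 1.57 in Casp2-depleted libraries (adjusted p = 0.90), and with so few reads it depends on the prior of the fit. In control the adjusted p was 0.066 in the fit with replicate blocks. The call over both genotypes was lost without any of 12 single libraries (adjusted p = 0.051 to 0.11), with DESeq2's size factors (adjusted p = 0.063) and in reads on genes alone (adjusted p = 0.12), while without P14 Casp2-depleted replicate 3 the value was -6.71 (adjusted p = 0.0084). The call in control was lost without any of 15 single libraries (adjusted p = 0.052 to 0.21). Des is also expressed by smooth muscle cells and pericytes, whose 9 other markers are given above as mural cells.

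**Figure D3:**
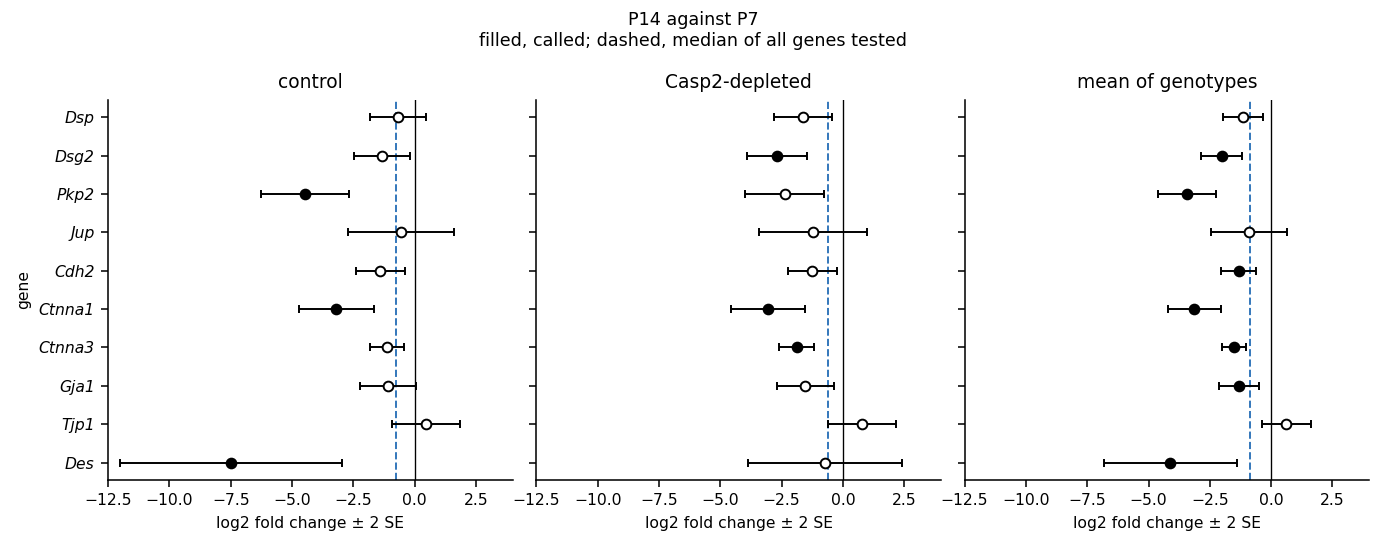
Log2 fold change of P14 against P7 for each disc gene in control, in Casp2-depleted and over both genotypes, with bars of 2 SE, filled points where the gene was called and a dashed line at the median of all genes tested. Over both genotypes 7 points are filled, all left of 0, and Tjp1 lies right of 0.

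By genotype, 3 of 10 members fell from P7 to P14 in control (Ctnna1, Pkp2 and Des), where 1.87% of all genes tested were called lower, and 3 of 10 in Casp2-depleted libraries (Ctnna1, Ctnna3 and Dsg2), where 2.82% were. The difference between genotypes in this step was not called for any member. By the interaction of genotype and day, 0 of 10 members and 0.0245% of all genes were called, the members' smallest adjusted p being 0.42 (Des, 6.77 ± 2.54), with Des and Pkp2 (2.12 ± 1.06) at an unadjusted p below 0.05, as were 9.76% of all genes. Without P14 Casp2-depleted replicate 3 the values of Des and Pkp2 in this step were 1.31 and -0.45. For the step from P1 to P7 the interaction called 0 members and 0% of all genes, with 0 members and 6.83% of genes at an unadjusted p below 0.05. In limma-voom with quantile normalization, 4 of 10 members were called lower over both genotypes, 1 in control and 0 in Casp2-depleted libraries, against 7.88%, 2.99% and 2.98% of all genes.

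**Figure D4:**
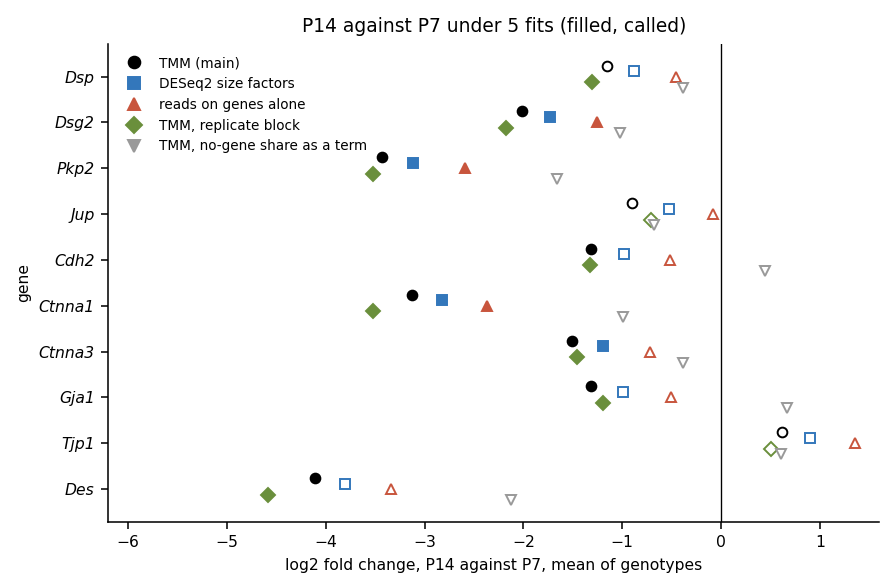
Log2 fold change of P14 against P7 over both genotypes under 5 fits (TMM, DESeq2's size factors, reads on genes alone, TMM with a replicate block, TMM with the no-gene share as a covariate), filled where called. Ctnna1, Pkp2 and Dsg2 are filled in 4 of the 5 fits, and no member is filled in the fit with the no-gene share.

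Scaling moved all genes together. Over all genes, the median change from P7 to P14 on the log2 scale was -0.87 with TMM factors, -0.60 with DESeq2's size factors and -0.17 in reads on genes alone, and 7, 4 and 3 of the 10 members were called lower in turn, against 8.66%, 6.13% and 3.52% of all genes. Relative to that median in the TMM fit, the members ran from -3.24 for Des to 1.49 for Tjp1. Between them lay, among others, Pkp2 (-2.56), Ctnna1 (-2.26), Dsg2 (-1.15) and Jup (-0.03). Over the genes with a mean of at least 50 reads per library, the median in the TMM fit was -0.395. In reads on genes alone, Ctnna1, Ctnna3 and Dsg2 were lower at P14 in 6 of 6 pairs of the same genotype and number, Pkp2, Cdh2, Dsp and Des in 5, Gja1 in 4, Jup in 3 and Tjp1 in 1.

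From P1 to P7 no member was called, and 0.0933% of all genes tested were, in the mean of genotypes. All 10 log2 fold changes were positive in this TMM fit. Their median was 0.62, against 0.22 over all genes tested, so most genes were positive too. In control alone 1 of the 2 gap junction genes was positive. In Casp2-depleted libraries alone 2 of 4 desmosome genes were positive and Des was negative (-0.47). In reads on genes alone, the median log2 ratio of same-numbered libraries was negative for Cdh2 (-0.087), Ctnna3 (-0.094), Dsp (-0.49) and Jup (-0.051). It was positive for the other members. In the TMM fit over both genotypes, 4 members and 9.53% of all genes stood at an unadjusted p below 0.05. These members were Dsg2 (given above), Pkp2 (1.11 ± 0.51), Ctnna1 (0.96 ± 0.47) and Gja1 (0.81 ± 0.38). In control alone, 0.00982% of all genes were called and 0 members, with 4 members and 6.67% of genes at an unadjusted p below 0.05, and in Casp2-depleted libraries alone 0.0196% and 0, with 1 such member (Dsg2) and 7.4% of genes. DESeq2 called 0 members in each of these 3 comparisons, over both genotypes, in control and in Casp2-depleted libraries, against 0.491%, 0.432% and 0.226% of all genes. From P1 to P14, Ctnna1 (-2.16 ± 0.53, adjusted p = 0.0030), Ctnna3 (-1.14 ± 0.25, adjusted p = 0.00071) and Pkp2 (-2.32 ± 0.58, adjusted p = 0.0043) were called lower over both genotypes, 3 of 10 members against 4% of all genes. The call of Pkp2 was lost without either of 2 single libraries (adjusted p = 0.066 and 0.084), and that of Ctnna3 without any of 4. In Casp2-depleted libraries 2 of 10 were, Ctnna1 (-2.88 ± 0.75, adjusted p = 0.012) and Ctnna3 (-1.71 ± 0.36, adjusted p = 0.00036), against 1.92% of all genes, and the block left only Ctnna3 (for Ctnna1 -2.50, adjusted p = 0.065), while Ctnna1 was also lost without any of 4 single libraries (adjusted p = 0.086 to 0.15) and Ctnna3 without 1 (adjusted p = 0.062). In control 0 of 10 were called, against 0.319% of all genes, with 2 members and 11.5% of genes at an unadjusted p below 0.05.

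The question of the study was what loss of Casp2 changes in these nuclei. No disc gene was called between Casp2-depleted and control libraries at P1, P7 or P14 or over the 3 days, where 0%, 0%, 0.167% and 0.0147% of all genes were. At an unadjusted p below 0.05 stood 1, 0, 4 and 1 of the 10 members, against 7.34%, 4.22%, 12.8% and 8.4% of all genes. DESeq2 called 0, 0, 1 and 0 members against 0.516%, 0.123%, 3.2% and 1.08% of all genes. The member was Des at P14 (6.28, adjusted p = 0.024). At P7 the paper reported differentially expressed genes from its own limma fit at the same thresholds. The 0% at P7 is that of the main fit used here, and DESeq2 called 0.123%. What made these shares differ from the paper's result was not tested. Limma-voom with quantile normalization called 0.00491% of all genes at P7 and 0 members.

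At P1 the member with the lowest p was Tjp1. It was at 304, 132 and 132 CPM in control and at 66.5, 24.7, 63.9 and 58.7 CPM in Casp2-depleted libraries. The groups did not overlap, with Casp2-depleted lower, as for 2.25% of all genes, and the log2 fold change of Casp2-depleted against control was -1.80 ± 0.71 (unadjusted p = 0.011, adjusted p = 0.64). The left-out P1 control replicate 1 held 84 reads of Tjp1, 25.4 CPM of reads on genes, which is as low as the Casp2-depleted libraries. At P7 the largest difference was that of Des (-0.85 ± 1.44), and the intervals of 2 SE of all 10 members included 0. Those of Ctnna3 (-0.68 to 0.57), Cdh2 (-1.02 to 0.78) and Dsg2 (-1.05 to 1.00) were the narrowest.

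At P14 the 4 members at an unadjusted p below 0.05 were Des (5.91 ± 2.16, adjusted p = 0.35), Dsg2 (-1.41 ± 0.61, adjusted p = 0.38), Ctnna3 (-0.80 ± 0.36, adjusted p = 0.39) and Dsp (-1.23 ± 0.61, adjusted p = 0.39). Without P14 Casp2-depleted replicate 3 the value of Des was 0.48, and without P14 control replicate 1 that of Dsp was 0.52. Dsg2 and Ctnna3 kept their sign without each of the 21 libraries. With 3 against 3 libraries, all 4 pairs of groups overlapped.

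**Figure D5:**
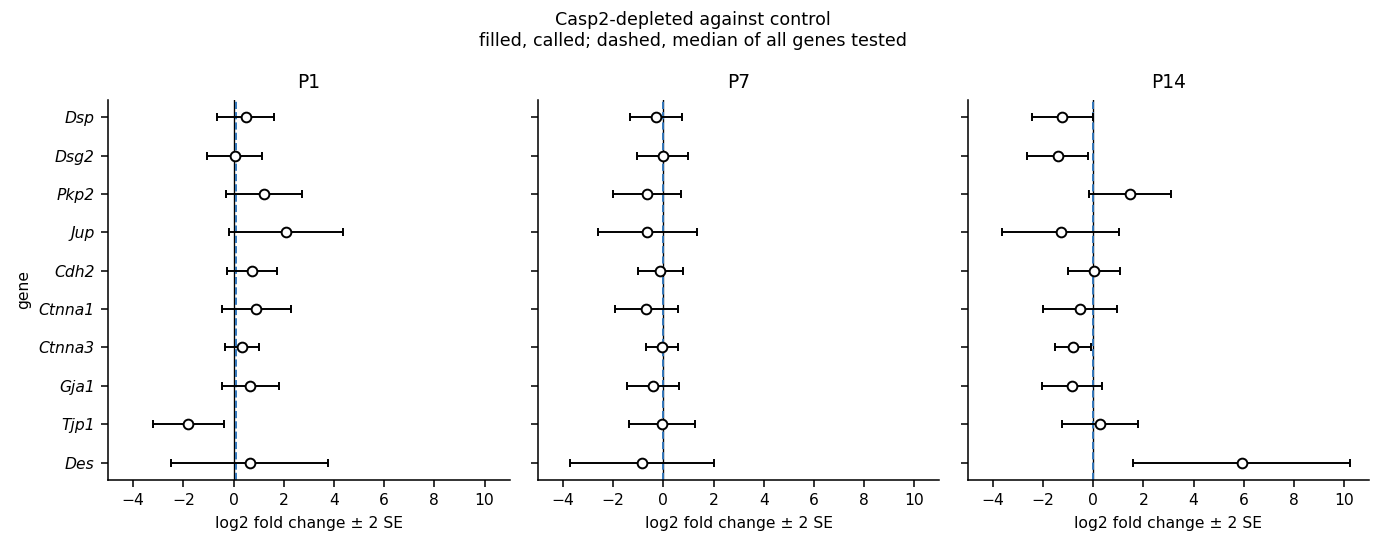
Log2 fold change of Casp2-depleted against control for each disc gene at P1, P7 and P14, with bars of 2 SE and a dashed line at the median of all genes tested. No point is filled, which means that no gene was called, and at P7 every bar crosses 0.

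Over the 6 groups, the mean CPM with TMM factors was highest in P7 control libraries for 8 of the 10 members (all but Tjp1 and Jup). In CPM of reads on genes it was highest there only for Gja1, Ctnna1, Pkp2 and Des. On that scale Cdh2, Ctnna3 and Dsp were highest in P1 Casp2-depleted libraries (569, 4334 and 333). Dsg2 was highest in P7 Casp2-depleted libraries (359). The share of all genes highest in P7 control libraries was not taken. In the order by TMM-scaled CPM, neighbouring groups were mostly not apart, since the ranges overlapped in 49 of 50 neighbouring pairs. The exception was Tjp1, in P7 against P1 Casp2-depleted libraries (111 ± 37.3 and 53.4 ± 19.4 CPM, SD, n = 4 each).

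A wider list of 73 genes of the intercalated disc and its surroundings was examined in the same fit. It was chosen by function, with earlier results of these data known, so its counts are a description. Of its 65 genes tested, 25 were called lower from P7 to P14 over both genotypes and 0 higher. Among all genes tested 8.66% were called lower, and 17.7% of those with a mean of at least 50 reads per library. The list had a median log2 fold change of -1.87 (-0.87 over all genes tested). With the 5 genes that had no read at P14 set at the bound a count of 0 allows, it was -1.84. The largest share was among the Xin-repeat and actin linker genes of the disc, 9 of 15, with no Xin-repeat gene among the 9. Connexins and the genes around them followed with 7 of 15, and further adherens junction genes with 7 of 19. Of 5 further desmosome genes 1 was called lower, and of 11 intermediate filament and costamere genes 1. Lmo7, which encodes a LIM and PDZ protein of adherens junctions, had the firmest change, from 4557 ± 1041 CPM in P7 control (SD, n = 4) to 489 ± 207 in P14 control (n = 3) and from 3564 ± 1206 to 251 ± 87.3 in Casp2-depleted libraries, with a log2 fold change of -3.60 ± 0.30 (adjusted p = 9.9e-29). Cav3, the caveolin of muscle, had 303 reads in control and 292 in Casp2-depleted libraries at P7, and 1 and 5 at P14. Gja3, which encodes a connexin, had 416 and 169 reads at P7, and 0 and 15 at P14. Csrp3, a muscle LIM protein, had 546 and 238 reads at P7, and 81 and 0 at P14. Tmem65, which encodes a membrane protein of the disc, had 591 and 304 reads at P7, and 136 and 0 at P14. With such low counts their fitted fold changes are not given.

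From P1 to P7 the list had 1 gene called, where 0.0933% of all genes tested were. It was Fgf13, which encodes an intracellular fibroblast growth factor homolog (1.35 ± 0.26, adjusted p = 0.00050). From P1 to P14 over both genotypes the list had 15 called lower, where 4% of all genes tested were. The 1 called higher was Bag3, a co-chaperone that maintains Z-discs (1.47 ± 0.46, adjusted p = 0.041). Genes of the same families that serve other tissues (other plakophilins, desmogleins, cadherins and claudins among them) numbered 21, of which 13 could be tested. From P7 to P14 1 of these was called lower over both genotypes, against 8.66% of all genes tested. It was Cldn5, the claudin of endothelial cells (adjusted p = 0.045), with 40 and 69 reads at P7 and 0 in every P14 library. The median log2 fold change of the 13 genes was 0.83 over both genotypes, -0.40 in control and 0.26 in Casp2-depleted libraries. The least read of the 13 held 32 reads over the 21 libraries, so these medians rest in part on changes fitted to few reads.

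The members' profiles over the 21 libraries were compared with those of 10521 genes with a mean of at least 20 reads per library, as Pearson's r of log2 CPM. Libraries share their depth and CM content across genes, so these values are a description. By Spearman's rho in place of r, at most 1 of the 3 nearest genes was shared for 7 of the 8 members compared. Pkp2 and Des, which had no read in some libraries, were left out of this search. Nearest to Ctnna3 were Cacnb2, an L-type calcium channel subunit (r = 0.97), Pcdh7 (0.96) and Tnni3k, a cardiac kinase (0.96). Near to Ctnna1 were Ppp1r12b and Gata4 (0.94 and 0.93), nearest to Cdh2 Esrrg, Actn2 and Trak1 (0.92, 0.91 and 0.90), and nearest to Gja1 Srsf6, Camk2d and Cdh13 (0.93, 0.92 and 0.91). For Dsp they were Afap1l1, Ube2h and Mfn2 (0.92, 0.91 and 0.90), and for Dsg2 Virma, Srp72 and Camsap2 (0.94, 0.93 and 0.91). Jup and Tjp1 had no gene above 0.77 and 0.83. Among the members with a read in every library, Gja1 with Cdh2 (0.86) was the closest pair, and Tjp1 with Jup (-0.61) the most opposed.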

How the data were processed

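Nuclear RNA of PCM1-sorted mouse CM nuclei was sequenced with a 3′ kit (QuantSeq 3′ FWD, low input, single-end) in 24 libraries. The deposited files hold raw read counts per gene, which the authors made with FastQC 0.11.8, cutadapt 4.0, STAR 2.6.1e and HTSeq 2.0.3 on GRCm39 over whole genes. Whether counting used strand or molecular identifiers is not given in the sources used here, so intervals and limits of a 0 cover counting error only. Summary rows of reads on no gene were excluded from library sizes and tests (shares in the report). GENCODE vM39 gave gene names, coordinates and lengths.

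Groups came from the sample titles. The 3 libraries the study left out were left out here. Genes were kept where 3 or more libraries had a read and the sum reached 10 reads, and were fitted with edgeR 4.0.16 (TMM factors, 6 group means, quasi-likelihood F-test with robust prior, 15 residual degrees of freedom, R 4.3.3), and p-values were adjusted by Benjamini-Hochberg over all 20368 genes. The SE of a change was taken as its size over the square root of F. Contrasts were days within and over genotypes, genotypes within and over days, and their interactions. Alternatives used DESeq2 1.42.0, limma 3.58.1, other scalings and filters, all 24 libraries, the replicate block and each library left out. The fit was tested on simulated data. The members and gene lists were chosen with earlier results of these data known. Named genes are the members, Casp2, Ctnna2 and the 3 genes most like each member. Of the wider lists otherwise at most the 5 called genes with the largest change per comparison are named. Some genes that this rule names are not reported here.

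Libraries with the same replicate number carry the same batch number in the deposited file names, 1 library per group in each. The correlation of their deviations from the group means had a median of 0.0114 over 46 pairs (-0.267 to 0.273), against -0.00373 over 137 pairs of different number. No replicate pair agreed within sampling noise (chi-square per degree of freedom 17.8 to 75.3 over 27 pairs). Whether libraries come from separate pools of animals was taken from the labels, and p-values measure the spread between these libraries.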

Additional observations from a re-analysis of the deposited data

Results flagged for a closer look

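Of 33 groups of 4 libraries tested for a library far from the others, 1 held one, where chance gives about 1 in 20. Tjp1 in P7 Casp2-depleted replicate 2 was at 166 CPM, while the other 3 libraries were between 86.2 and 96.4 CPM.

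The 3 libraries left out of every comparison held member levels above those of every kept control library in 9 of 30 cases, in CPM of reads on genes. P1 control replicate 1 held 1034.6 for Cdh2, 376 for Ctnna1, 7234 for Ctnna3, 492 for Pkp2 and 96.1 for Des, where the highest kept control libraries held 866, 291, 6064, 313 and 54.4. P14 control replicate 3 held 1515 for Cdh2, 6497 for Ctnna3 and 1362 for Dsg2, for which the highest kept control library held 407. P14 Casp2-depleted replicate 1 held 1759.7 for Cdh2. Other values lay below every kept library of their group, as for Tjp1 with 1 and 0 reads and Jup with 0 in both P14 libraries. These P14 libraries had a read on 2049 and 4285 genes, against 7628 to 13651 in those kept. The paper left them out for few detected genes, and the P1 library for signs of cytoplasmic contamination. The 3 libraries entered no comparison of the report except the fit with all 24.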

How the results depend on the processing

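The members called depended on scaling, on the libraries used and on the share of reads on no gene, and the cause was not tested. From P7 to P14 over both genotypes (7 called) 4 were called with DESeq2's size factors, 3 in reads on genes alone, 3 with all 24 libraries, 4 in limma-voom with quantile normalization and 0 with the no-gene term, which was added after seeing the data. In control (3) 1 was called in reads on genes alone, with filterByExpr, in limma-voom with TMM or quantile normalization and in the fit of only the groups compared, and 0 with all 24 libraries or the no-gene term. In Casp2-depleted libraries (3) 1 was called in reads on genes alone and limma-voom with TMM, and 0 with all 24 libraries, quantile normalization or the no-gene term. From P1 to P14 over both genotypes (3) 1 was called in limma-voom with TMM and in only the groups compared, and 0 in reads on genes alone, quantile normalization and the no-gene term. In Casp2-depleted libraries (2) 1 was called in reads on genes alone, with filterByExpr and with the replicate block, and 0 with all 24 libraries, both limma-voom fits, only the groups compared and the no-gene term. DESeq2 called 1 from P1 to P14 in control (0) and 1 between genotypes at P14 (0).

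The sign turned with the no-gene term for Gja1 (0.67) and Cdh2 (0.45) from P7 to P14 and for Gja1 from P1 to P7 (-0.092), with quantile normalization for Ctnna3 from P7 to P14 in control (0.12), and for the Pkp2 interaction with limma-voom (TMM -0.040, quantile -0.71). Leaving out each library gave 4 to 8 members called from P7 to P14 over both genotypes, 1 to 6 in control and 2 to 4 in Casp2-depleted libraries, and from P1 to P14 1 to 4, 0 to 1 and 0 to 3. It gave alpha-catenin share differences of 2.88 to 3.76 points (P7 to P14) and -2.41 to -1.53 points (P1 to P7), genotype values of Dsp at P14 from -1.80 to 0.52 and Pkp2 interactions from -0.45 to 2.76. Ctnna1, Ctnna3, Dsg2 and Pkp2 over both genotypes from P7 to P14 were called without each of the 21 libraries. The replicate block changed no call besides those given with their values in the report. Depth limits Des most, with at most 1 read in 5 of 6 P14 libraries.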
